A study of Mus musculus with 8 samples.

Results

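The miR-25, miR-32 and miR-92 family groups guide strands that carry an identical seed, the stretch at the 5′ end of a microRNA (miRNA) that pairs with target mRNAs. The members were chosen by name: every read sequence that the table assigns to miR-25-3p, miR-32-5p, miR-92a-3p, miR-92b-3p or miR-363-3p was taken, and reads of the same name were summed. This gave 285 of 47204 read sequences and 5 of 895 miRNA names, with 170 sequences for miR-92b-3p, 64 for miR-92a-3p, 34 for miR-25-3p, 12 for miR-32-5p and 5 for miR-363-3p.

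The reads are small RNAs bound to the RNA-induced silencing complex (R-sRNAs), precipitated from combined cortex and hippocampus of mice with a peptide of GW182, a protein that binds all Argonaute proteins. The 4 het libraries came from 5XFADtg Rubicon+/- mice, which keep 1 copy of Rubicon, and the 4 ko libraries came from 5XFADtg Rubicon-/- mice, which have none. All 8 mice were different animals, all carried the 5XFAD transgene, and per the study's methods they were females of a mixed C57BL/6J/SJL background, 6 or 8 months old. Other passages of the study name the younger age alone and fewer het mice than the 4 libraries labelled so. Rubicon restrains canonical autophagy, 5XFAD mice deposit amyloid, and the study asked whether loss of Rubicon in these mice shifts the R-sRNAs towards seeds that are toxic to cells. The labels give neither the age of each mouse nor a group without the 5XFAD transgene, and no group here had 2 intact copies of Rubicon. The tissue was whole, so a lower level of a guide in fewer cells and a lower level in each cell cannot be told apart.

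A guide strand sits in Argonaute and finds mRNAs mainly through its seed, so members of a seed family are expected to share many targets even where the rest of the sequence differs. The members are processed from hairpins at separate loci. miR-25 lies with miR-106b and miR-93 inside Mcm7, a replication licensing gene. miR-92a is the last hairpin of the miR-17-92 cluster and is also encoded in its paralog on the X chromosome, where miR-363 follows it. miR-92b has a hairpin of its own and is known from neural progenitors, and miR-32 is hosted by Tmem245. Bcl2l11, which promotes apoptosis, and Fbxw7, a ubiquitin ligase subunit, are known targets of the family.

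The mature sequences from RefSeq (build GRCm38.p6) are printed here to show what the members have in common and where they part. Capitals mark bases 2 to 8, the seed.
miR-92b-3p: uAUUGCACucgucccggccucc
miR-92a-3p: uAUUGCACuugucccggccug
miR-25-3p: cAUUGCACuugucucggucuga
miR-32-5p: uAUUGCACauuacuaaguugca
miR-363-3p: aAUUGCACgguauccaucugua
All 5 share AUUGCAC from base 2 to base 8. Counted from 1 at the 5′ end, miR-92a-3p and miR-92b-3p were identical at 19 of 21 bases and differed by U10C and G21C. miR-25-3p matched miR-92a-3p at 18 of 21 bases, with the differences C1U, U14C and U18C. miR-32-5p and miR-363-3p were further away, with 11 and 10 bases of 21 in common with miR-92a-3p. miR-367-3p, whose mature form in RefSeq has the same 7 bases, was not listed in the table.

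The hairpins lie on 5 chromosomes of GRCm38.p6. Mir92b is at chr3:89227116-89227198 on the minus strand, between genes, 28 bp from Mtx1 on the same strand and 279 bp from Thbs3 on the opposite strand. Mir32 is at chr4:56895229-56895298 on the minus strand, in an intron of Tmem245. Mir25 is at chr5:138165321-138165404 on the minus strand inside Mcm7, where it is intronic in the protein-coding transcripts and exonic only in a retained-intron transcript. The genes for miR-92a are Mir92-1 at chr14:115044427-115044506 on the plus strand, in an exon of the lincRNA Mir17hg, and Mir92-2 at chrX:52741838-52741928 on the minus strand. Mir363 is at chrX:52741693-52741767 on the minus strand, next to Mir92-2, and both lie outside annotated genes, with Kis2 the nearest.

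Values are given as CPM, the reads of a miRNA scaled to a total of 1000000 in its library. A read here is a whole guide strand, so levels of different members were compared without a correction for length. Library depth ran from 517980 to 19915863 reads, and the ko libraries 1 and 2 were the only libraries above 5000000 reads. Libraries also differed in base composition: Spearman's rho between the GC content of 463 miRNAs and their deviation from the mean over libraries was 0.53 in ko replicate 3 and 0.34 in het replicate 4, and between −0.45 and 0.07 in the other 6.

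miR-92b-3p was the most abundant member and ranked 69 of 895 miRNAs by mean CPM. In the table, mmu-miR-92b-3p stood at 1463, 1591, 1163 and 1945 CPM in the het libraries 1 to 4 and at 2407, 1175, 5095 and 1824 CPM in the ko libraries 1 to 4. The highest value was ko replicate 3, the lowest was het replicate 3, and the groups overlapped. miR-92a-3p ranked 105. The name mmu-miR-92a-3p had 616, 732, 621 and 928 CPM in the het libraries and 753, 554, 2322 and 629 CPM in the ko libraries. Again ko replicate 3 stood above all others, and the remaining 3 ko libraries lay within or below the het range.

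miR-25-3p ranked 142. The values of mmu-miR-25-3p were 403, 439, 484 and 564 CPM in the het libraries and 586, 450, 870 and 503 CPM in the ko libraries. Its highest value was once more in ko replicate 3, and its groups overlapped. miR-32-5p ranked 235. Reads of mmu-miR-32-5p came to 268, 285, 195 and 197 CPM in the het libraries and 98.7, 181, 97.5 and 44.1 CPM in the ko libraries. Every ko library was below every het library, unlike in the other 3 members, whose groups overlapped.

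miR-363-3p was near the limit of detection. The name mmu-miR-363-3p was listed at 0 in het replicate 1 and in ko replicate 3, where 3 reads correspond to 5.79 and 1.29 CPM, and at 0.388 to 4.13 CPM in the other 6 libraries. Only 48 reads in all libraries carried its name, and it fell under the mean of 10 CPM required for a test. The members together made up 0.369% of all reads on average, with a range of 0.236% to 0.839%. Of this sum, miR-92b-3p took 55.0% ± 5.68 (SD, n = 8), miR-92a-3p 23.6% ± 2.62, miR-25-3p 15.7% ± 2.91, miR-32-5p 5.66% ± 3.52 and miR-363-3p 0.0556% ± 0.0561.

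**Figure D1:**
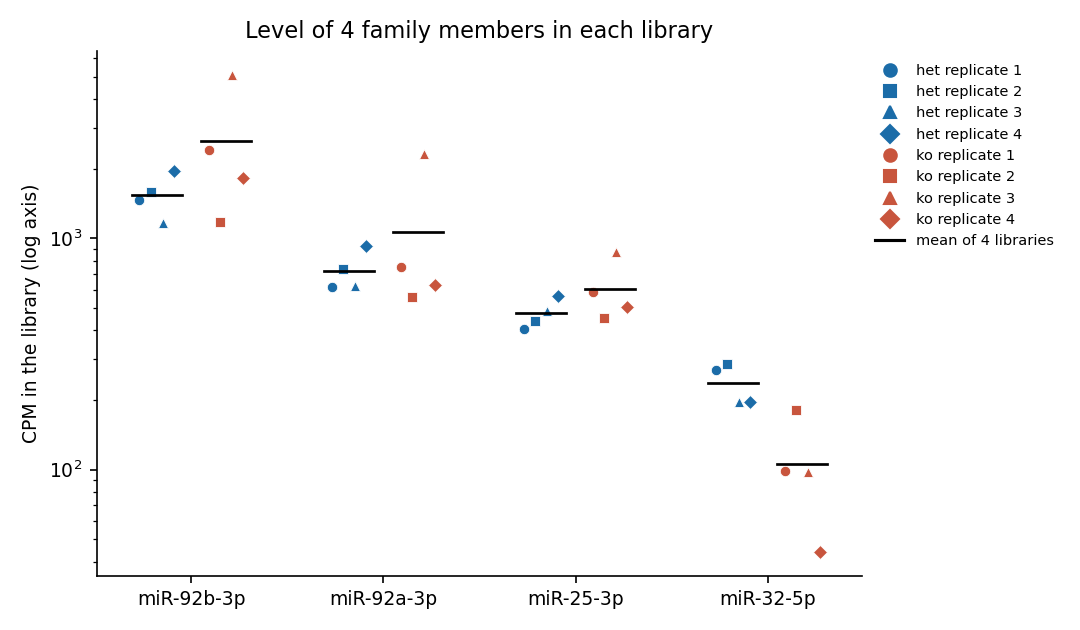
CPM of the 4 abundant members (y axis, log scale) in each of the 8 libraries, with het in blue, ko in red, a marker shape for each replicate number and a black line at the arithmetic mean of 4 libraries. miR-92b-3p, miR-92a-3p and miR-25-3p peak in ko replicate 3 (5095, 2322 and 870 CPM), while miR-32-5p lies between 44.1 and 181 CPM in ko and between 195 and 285 CPM in het.

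The order of the levels was the same in each library. miR-92b-3p exceeded miR-92a-3p by 2.33-fold on average (range 1.87 to 3.19), miR-92a-3p exceeded miR-25-3p by 1.52-fold (1.23 to 2.67), and miR-25-3p exceeded miR-32-5p by 3.52-fold (1.502 to 11.2), as geometric means of ratios of CPM + 1. miR-32-5p exceeded miR-363-3p by 66.4-fold on the same scale, a ratio that depends on the added 1 CPM because miR-363-3p is so scarce. Each of the 4 neighbouring steps held in 8 of 8 libraries, and no test is given because the steps were set by sorting the members on these same libraries.

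Next, ko was compared with het by limma on log2(CPM + 1) over the 463 miRNAs whose mean reached 10 CPM. None of the 4 tested members passed an adjusted p of 0.05, against a background of 1.3% of miRNAs called. Before adjustment, 1 member, miR-32-5p, fell under 0.05, as did 7.34% of all miRNAs (6.91% with a lower level in ko), and edgeR and DESeq2 on recovered reads also called none of the members. miR-32-5p averaged 236 CPM ± 47.3 in het and 105 CPM ± 56.7 in ko (SD, n = 4 each), a log2 difference of −1.30 (SE 0.39, limma, adjusted p = 0.209). The nearest libraries of the groups could not be told apart within counting error: the Wilson 95% interval was 176 to 187 CPM in ko replicate 2, the highest ko library, and 179 to 213 CPM in het replicate 3, the lowest het library. A layout with all ko below all het libraries was found in 3.24% of the 463 miRNAs.

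The other 3 members had higher means in ko. Their differences in CPM were larger than the SD of the het libraries but smaller than that of the ko libraries. miR-92b-3p averaged 1541 CPM ± 324 in het and 2625 CPM ± 1722 in ko, a log2 difference of 0.58 (SE 0.39, limma, adjusted p = 0.796). Without ko replicate 3 that difference was 0.19. miR-92a-3p averaged 724 CPM ± 146 and 1065 CPM ± 842, a log2 difference of 0.31 (SE 0.40, limma, adjusted p = 0.975), and without ko replicate 3 it was −0.16. miR-25-3p averaged 473 CPM ± 69.2 and 602 CPM ± 187, a log2 difference of 0.31 (SE 0.26, limma, adjusted p = 0.947), and 0.12 without ko replicate 3. The median log2 difference over all miRNAs was −0.09, and it moved by 0.22 to 0.13 when each library was centred on its median. Relative to either median, miR-32-5p stayed lower in ko and the other 3 stayed higher.

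Values that moved alongside were as follows. The members that peak in ko replicate 3 were richer in GC: the most abundant read of miR-92b-3p had 63.6% GC, that of miR-92a-3p 54.5%, that of miR-25-3p 50.0% and that of miR-32-5p 33.3%. With each library's trend on GC removed, the log2 differences were 0.62 for miR-92b-3p, 0.36 for miR-92a-3p, 0.40 for miR-25-3p and −1.12 for miR-32-5p, and none was called. Summed marker miRNAs of 3 other cell types also had lower ranges in ko. For 4 blood (erythroid) markers the summed CPM ran from 1911 to 3392 in het libraries and from 912 to 2380 in ko libraries. It ran from 9473 to 15455 and from 6148 to 9935 for 3 oligodendrocyte markers, and from 2249 to 8555 and from 226 to 1794 for 7 epithelial markers. For other lists the sums were 2558 to 3991 in het and 2430 to 4528 in ko for 4 leukocyte markers, 6038 to 11056 and 6112 to 11931 for 2 endothelial markers, and 178727 to 219720 and 182484 to 279811 for 5 neuronal markers. Sums weigh abundant markers most. By single markers, 2 of 3 tested blood, 2 of 3 oligodendrocyte, 6 of 6 epithelial, 3 of 4 leukocyte, 1 of 2 endothelial and 2 of 5 neuronal markers had a lower level in ko. No blood, oligodendrocyte or epithelial marker was at 0 in any library, 3 of the 6 epithelial markers tested were called lower, and the part of these cell types in the level of miR-32-5p was not tested.

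**Figure D2:**
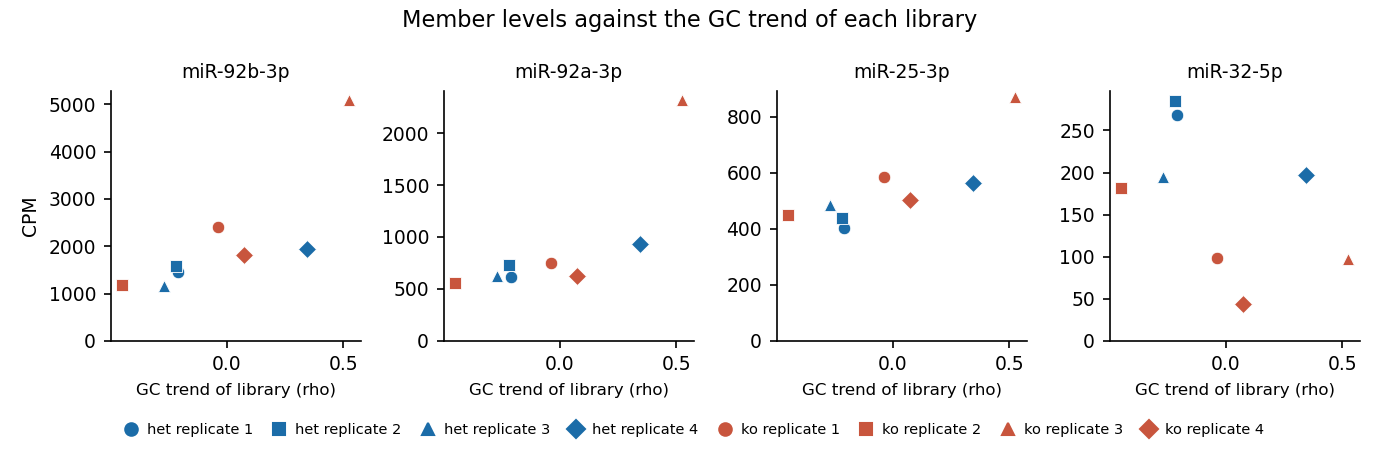
CPM of each member (y axes, each from 0 with its own scale) against the GC trend of the library (x axis, Spearman's rho between GC content and the deviation of 463 miRNAs), with het in blue, ko in red and a marker shape per replicate number. ko replicate 3, at a rho of 0.53, has the highest miR-92b-3p, miR-92a-3p and miR-25-3p, whereas miR-32-5p is at 97.5 CPM there and at 285 CPM in het replicate 2, where rho was −0.21.

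Ratios within a library do not depend on scaling to a fixed total, and they were compared between the genotypes by exact two-sided permutation tests over all 70 splits (smallest possible p = 0.0286). The log2 ratio of miR-32-5p to miR-25-3p was −0.59, −0.62, −1.31 and −1.51 in the het libraries and −2.56, −1.31, −3.14 and −3.48 in the ko libraries. ko replicate 2 lay inside the het range and the other 3 ko libraries lay below it. The mean was −1.01 in het and −2.62 in ko, a difference of −1.62 (exact permutation p = 0.0857, 0.343 after adjustment over the 4 ratios). As a share of the family, miR-32-5p was 8.11% ± 1.96 in het (5.41% to 9.75%). It was 2.57%, 7.68%, 1.16% and 1.47% in the ko libraries 1 to 4 (mean 3.22% ± 3.03), so ko replicate 2 again lay inside the het range.

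The paralogs miR-92b-3p and miR-92a-3p kept a narrow ratio. Its log2 value was 1.25, 1.12, 0.90 and 1.07 in the het libraries and 1.68, 1.08, 1.13 and 1.53 in the ko libraries, with means of 1.08 and 1.36 (difference 0.27, exact permutation p = 0.171, adjusted p = 0.343). These groups overlapped. The ratio of miR-25-3p to miR-92a-3p, members of the miR-106b-25 and miR-17-92 clusters, averaged −0.61 in het and −0.60 in ko (difference 0.01, exact permutation p = 1). ko replicate 3, at −1.41, was far below the other 7 libraries, which ran from −0.74 to −0.30. The ratio of miR-363-3p to miR-92a-3p rests on 48 reads and differed by −0.46 (exact permutation p = 0.714).

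**Figure D3:**
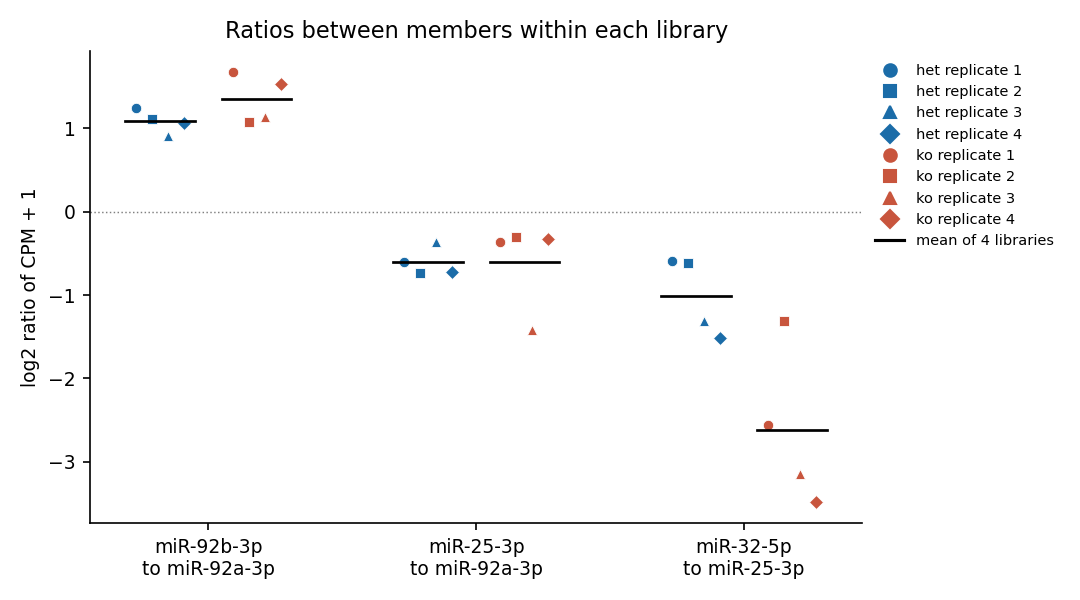
log2 ratios of CPM + 1 between members within each library (y axis), with het in blue, ko in red, a marker shape per replicate number and a black line at the mean of 4 libraries. The ratio of miR-32-5p to miR-25-3p has means of −1.01 in het and −2.62 in ko, with ko replicate 2 at −1.31, while for the other ratios shown the group means lie within 0.27 of each other.

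Across the 8 libraries, the 3 GC-richer members moved together as log2(CPM + 1). Pearson's r was 0.93 for miR-92a-3p with miR-92b-3p, 0.92 for miR-25-3p with miR-92a-3p and 0.92 for miR-25-3p with miR-92b-3p (Spearman's rho 0.88, 0.79 and 0.79). Without the 2 libraries farthest from the median of the member named first, r was 0.77, 0.63 and 0.78. miR-32-5p had negative coefficients, with r of −0.48 against miR-25-3p, −0.45 against miR-92b-3p and only −0.22 against miR-92a-3p. Of 459 miRNAs outside the family, let-7e-5p (r = 0.96, rho 0.88), miR-383-5p (r = 0.96, rho 0.90) and miR-1843b-3p (r = 0.93, rho 0.79) were most like the summed members, with r of 0.90, 0.77 and 0.60 without the 2 farthest libraries. In the same order, the GC content of these 3 miRNAs was 40.9%, 50.0% and 54.5%. They also led for single members, let-7e-5p for miR-25-3p (r = 0.94), miR-1843b-3p for miR-92a-3p (r = 0.96) and miR-383-5p for miR-92b-3p (r = 0.96). All these coefficients come from the same 8 libraries, which share depth and GC trend, and describe those libraries only.

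The guides that share a primary transcript with a member gave no called difference. Of 10 such guides fixed as a list, 9 were listed and 7 tested, and none was called, with 5 lower and 2 higher in ko and a median log2 difference of −0.18 against −0.09 for all miRNAs. None of the 7 had an unadjusted p under 0.05. In the miR-106b-25 cluster, miR-106b-5p averaged 838 CPM (het) against 819 CPM (ko), and miR-93-5p 815 against 827 CPM. The 5 guides of the miR-17-92 cluster had log2 differences between −0.37 and −0.07. With libraries centred on their medians, which shifts all miRNAs alike, 2 of the 7 guides were lower and 5 higher, with a median of 0.04 against 0.13 for all miRNAs. Of the X-linked paralog cluster, miR-106a-5p and miR-20b-5p averaged 2.52 and 4.67 CPM, too low to test, and miR-18b-5p was not listed.

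Where both arms of a hairpin were listed, the arm named as a member held most reads. miR-92b-5p had 1243 reads, 1.90% of all reads of its hairpin arms after pooling CPM, and a log2 difference of 0.59 (limma, adjusted p = 0.948). For Mir32 the pooled share of miR-32-3p was 2.67%, from 231 reads. It ran from 0% to 3.04% in the het libraries (mean 1.58% ± 1.37) and from 2.16% to 11.8% in the ko libraries (6.08% ± 4.27). The groups overlapped, and this share was not tested. The 11.8% rests on 6 reads of miR-32-3p beside 45 of miR-32-5p in ko replicate 4, and 133 of the 231 reads came from ko replicate 2. miR-25-5p made up 0.447% from 70 reads and miR-92a-1-5p 0.143% from 50 reads. miR-92a-2-5p and miR-363-5p were not listed.

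Both hairpins of miR-92a-3p encode the same 21 bases and then differ. Mir92-1 continues with UUGA and Mir92-2 with AGGA. Of the miR-92a-3p reads that reached base 22, 96.4% ± 1.09 (SD, n = 8) had U there, at 816 CPM on average, and 3.37% ± 1.12 had A, at 28.4 CPM. The range for U was 93.8% to 97.1%, so it did not overlap that for A in any library. Reads whose bases 22 and 23 both matched Mir92-1 had a mean of 48.8 CPM, against 0.51 CPM for reads that matched Mir92-2 at both. An A or U can also be added after cleavage, and UU can arise that way. AG that neither hairpin encodes followed base 22 in a miR-92a-3p read with a mean of 4.08 CPM. Thus U, A, UU or AG after base 21 does not settle the origin of a read.

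The most abundant reads show the 3′ ends of the members. The capitals again mark bases 2 to 8, and letters are as sequenced, with t for u.
miR-92b-3p, 1st: tATTGCACtcgtcccggcctcc
miR-92b-3p, 2nd: tATTGCACtcgtcccggcctc
miR-92a-3p, 1st: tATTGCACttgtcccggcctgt
miR-25-3p, 1st: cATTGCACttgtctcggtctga
miR-25-3p, 2nd: cATTGCACttgtctcggtct
miR-32-5p, 1st: tATTGCACattactaagttgc
miR-32-5p, 2nd: tATTGCACattactaagttgca
miR-32-5p, 3rd: tATTGCACattactaagttgcat
The first read of each took 43.5% ± 6.49 of miR-92b-3p, 71.3% ± 3.11 of miR-92a-3p, 75.7% ± 2.5 of miR-25-3p and 46.9% ± 10.1 of miR-32-5p (mean and SD of 8 libraries). The median over 278 miRNAs of at least 100 CPM was 44.6%, and miR-25-3p and miR-92a-3p ranked 14 and 28 of these. The miR-32-5p reads differed in where they ended along the hairpin, with 47.5% of its reads at 21 nt, 25.5% at 22 nt and 16.6% at 23 nt.

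Reads that follow the hairpin and then end in added A or U bases are shown next, with capitals now marking the added tail.
miR-92b-3p with U: tattgcactcgtcccggcctcT
miR-92b-3p with AU: tattgcactcgtcccggcctAT
miR-92a-3p with A: tattgcacttgtcccggcctgtA
miR-92a-3p with AU: tattgcacttgtcccggcctgtAT
miR-25-3p with U: cattgcacttgtctcggtctgT
Such tails were found on 36.5% ± 3.63 of miR-92b-3p reads, 15.1% ± 4.40 of miR-92a-3p reads, 8.03% ± 1.94 of miR-25-3p reads and 2.97% ± 2.13 of miR-32-5p reads (SD, n = 8). The median over 235 miRNAs was 9.55%, and miR-92b-3p ranked 14 of 235. In the het libraries the tailed share of miR-92b-3p was 37.2%, 39.0%, 34.2% and 33.1%, and in the ko libraries it was 41.5%, 40.5%, 35.3% and 31.3%. For miR-92a-3p it was 23.2%, 9.01%, 12.5% and 12.8% in het and 17.4%, 14.1%, 13.4% and 18.5% in ko. In each library miR-92b-3p was above miR-92a-3p, and these sequences differ at 2 of 21 bases.

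This measure is not equal between the members, because an added base that matches the hairpin counts as encoded. Mir92-1 continues with UU and Mir92-2 with A after base 21 of miR-92a-3p, so a U or A added there is not scored, whereas miR-92b-3p continues with a G. Counted without the hairpin, 96.2% ± 0.797 of miR-92a-3p reads and 43.6% ± 5.04 of miR-92b-3p reads ended in A or U (SD, n = 8), the opposite order. The tailed shares are therefore given as a description, with no test between members. On miR-92b-3p the scored tails began with U in 19.9% ± 2.79 of reads and with A in 16.6% ± 1.5, and on miR-92a-3p with U in 1.31% ± 0.832 and with A in 13.8% ± 4.23.

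Other isoform measures were compared within libraries, in 12 tests of 3 measures and 4 pairs of members. These tests were added after the data were seen. Their smallest possible exact sign-flip p is 0.0078, reached whenever all 8 libraries have the same sign. miR-92b-3p had more sequences than miR-92a-3p (170 and 64) but also more reads (67290 and 28461). The most abundant read of miR-92b-3p held 27.8 points less than that of miR-92a-3p in 8 of 8 libraries (exact sign-flip p = 0.0078, adjusted p = 0.0156 over these tests). This share is unequal between these members in the same way as the tailed share. A U added to the miR-92a-3p read ending in cctg gives its most abundant read, as Mir92-1 encodes U there. On miR-92b-3p an added U or A gives a separate read. The test therefore cannot separate added bases from encoded ends.

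**Figure D4:**
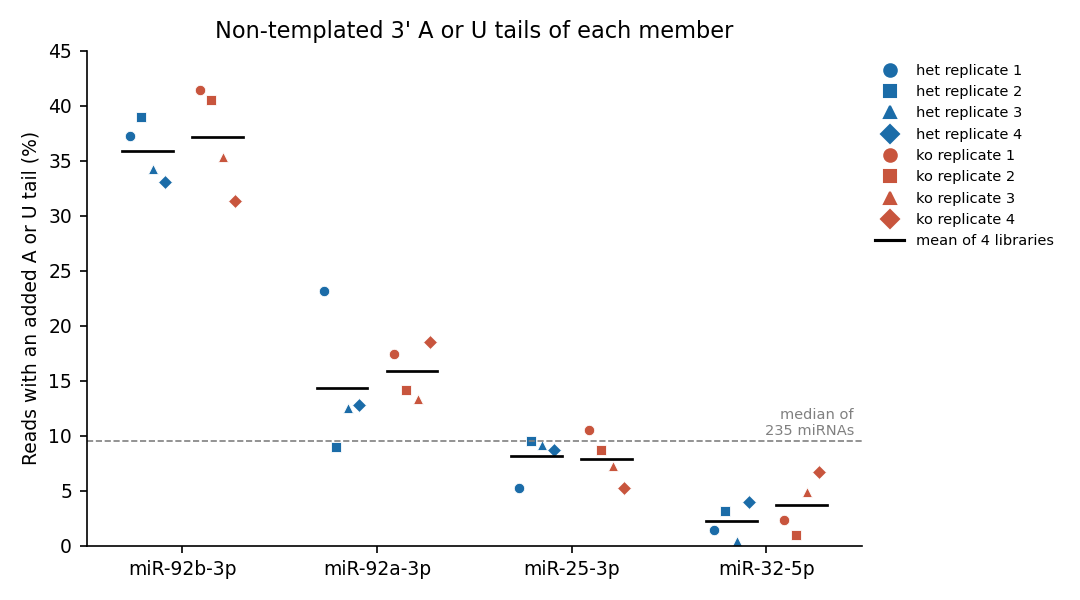
Percent of each member's reads that end in an A or U tail not encoded by its hairpin (y axis), by library, with het in blue, ko in red, a black line at the mean of 4 libraries and a dashed line at the median of 235 miRNAs (9.55%). miR-92b-3p lies between 31.3% and 41.5% in all 8 libraries, above miR-92a-3p (9.01% to 23.2%), miR-25-3p (5.26% to 10.5%) and miR-32-5p (0.399% to 6.67%).

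Mean read length followed the order miR-92a-3p (22.21 nt), miR-92b-3p (22.04 nt), miR-25-3p (21.75 nt) and miR-32-5p (21.48 nt). miR-92a-3p was 0.17 nt longer than miR-92b-3p and 0.46 nt longer than miR-25-3p, each in 8 of 8 libraries (exact sign-flip p = 0.0078, adjusted p = 0.0156). miR-25-3p was 0.27 nt longer than miR-32-5p in 7 of 8 libraries (exact p = 0.0234, adjusted p = 0.0281). The modal length was 22 nt for miR-92b-3p (57.8% of reads), miR-92a-3p (74.6%) and miR-25-3p (79.0%), and 21 nt for miR-32-5p.

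**Figure D5:**
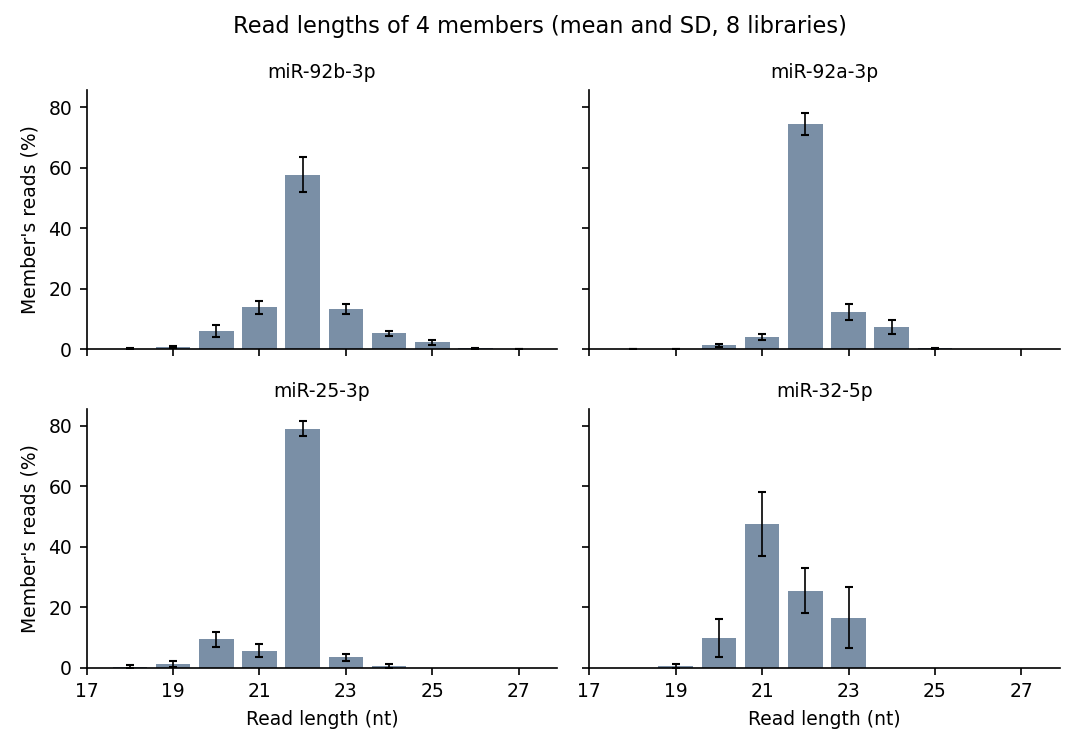
Percent of each member's reads (y axis) at each read length in nt (x axis), as bars for the mean and whiskers for the SD of 8 libraries. miR-92a-3p and miR-25-3p have 74.6% and 79.0% of their reads at 22 nt, miR-92b-3p has 57.8% there, and miR-32-5p peaks at 21 nt with 47.5%.

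Isoform measures were then compared between the genotypes with limma over all miRNAs of at least 100 CPM. No member was called for seed shift, read length, share of the most abundant read or tailed share, and no miRNA at all was called for any of them (0% of 278, 278, 278 and 235). At an unadjusted p under 0.05 there were 5.4%, 5.4%, 6.12% and 3.4% of miRNAs but none of the members, whose adjusted p-values ran from 0.843 to 0.976. The tailed share of miR-92b-3p was 35.9% ± 2.71 in het and 37.1% ± 4.72 in ko, and its shifted share 3.85% ± 0.374 and 3.31% ± 0.180.

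At the level of single reads, 38 of the 285 sequences reached 10 CPM and were tested among 3299 reads. None was called by limma, where 0.485% of all reads were. Of the 38, 1 reached 10 CPM only through het and 3 only through ko. Among the remaining 34, an unadjusted p under 0.05 was found for 5, of which 3 belonged to miR-92b-3p and stood higher in ko and 2 to miR-32-5p and stood lower, where 5.3% of all reads passed (1.12% higher, 4.18% lower). The 3 such reads of miR-32-5p were lower in ko (median log2 difference −1.16), and 19 of the 20 of miR-92b-3p were higher (median 0.53), beside a median of −0.02 over all reads. As reads of a miRNA come from the same libraries, these counts repeat the level of the miRNA itself.

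The 23 nt read of miR-32-5p, tATTGCACattactaagttgcat, reached the mean of 10 CPM only through het, so its values are a description. It stood at 30.9, 73.6, 19.0 and 52.9 CPM in the het libraries and at 3.56, 6.23, 14.6 and 6.86 CPM in the ko libraries. The means were 44.1 CPM ± 24.2 in het and 7.81 CPM ± 4.75 in ko. The shorter reads of 21 nt and 22 nt differed by −1.16 (adjusted p = 0.879) and −1.14 (adjusted p = 0.629). On the other side, the miR-92b-3p read with a U tail went from 68.3 CPM ± 17.6 to 173 CPM ± 100, a log2 difference of 1.19 (limma, adjusted p = 0.629), and the read with an AU tail from 10.3 CPM ± 4.77 to 27.7 CPM ± 9.42, a log2 difference of 1.38 (adjusted p = 0.629). In miR-92a-3p the reads with the 3′ ends gta and gtt differed by 0.45 and 0.26 (adjusted p = 0.973 each), and in miR-25-3p the 20 nt and 21 nt reads by 0.30 and 0.61 (adjusted p = 0.973 each). Fitted log2 differences were below 0 for reads that lack the first base, aTTGCACTtgtcccggcctgt of miR-92a-3p (−0.47) and aTTGCACTcgtcccggcctcc of miR-92b-3p (−0.21). Their mean CPM was not lower in ko. The miR-92a-3p read averaged 9.21 CPM in het and 15.6 CPM in ko, with ko replicate 4 at 0 and ko replicate 3 at 50.3 CPM. It reached the mean of 10 CPM only through ko, so its values are a description. The miR-92b-3p read averaged 19.4 CPM in het and 19.6 CPM in ko. The read tATTGCACttgtcccggcctga of miR-92a-3p, the form ending in A at base 22, differed by 0.64 (adjusted p = 0.973).

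The shared 6mer seed, bases 2 to 7 (AUUGCA), links the family to the study's measure. 6mer seed viability is the mean viability of mouse cell lines after transfection of an siRNA with that seed, a deposited score from a separate screen and not a measurement in these mice. AUUGCA had a score of 86.2, above 94.6% of the 3427 seeds in the table, while the mean over all reads weighted by CPM was 56.4. Reads with this seed reached 3598 CPM on average and ranked 35 of 3427 seeds. Members carried 99.3% of them, and the remainder was mainly unnamed reads (21.5 CPM, of which 43 of 46 sequences were placed by the table in a member's hairpin) and miR-153-3p (1.68 CPM).

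The seed total was 2664, 2997, 2417 and 3543 CPM in the het libraries and 3755, 2313, 8151 and 2946 CPM in the ko libraries. It was highest in ko replicate 3 and lowest in ko replicate 2, and the groups overlapped. The log2 difference was 0.40 (SE 0.34, limma, adjusted p = 0.960 over 990 seeds), where 0.303% of seeds were called, and without ko replicate 3 it was 0.035. Reads that start 1 base later carry the seed UUGCAC with a score of 62.6. They made up 2.93% ± 0.456 of miR-92b-3p and 39.7% ± 29.8 (n = 6 libraries with any read) of the scarce miR-363-3p, whose first base is missing in its most abundant read, aTTGCACGgtatccatctgta (0.465 CPM). In shifted seeds, miR-92b-3p exceeded miR-92a-3p by 1.07 points and miR-25-3p by 1.89 points, each in 7 of 8 libraries (exact sign-flip p = 0.0156, adjusted p = 0.0208). For miR-92a-3p with miR-25-3p and for miR-25-3p with miR-32-5p the exact p was 0.0859 and 0.961. The mean score per read was 85.3 for miR-92b-3p, 85.6 for miR-92a-3p, 85.8 for miR-32-5p, 85.9 for miR-25-3p and 76.8 for miR-363-3p.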

How the data were processed

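The authors' SPOROS table holds 1 line per distinct read sequence with the miRNA it matched, and its deposited values are CPM, scaled by the authors to the reads of each library. Trim Galore is named in the submitters' processing notes, the study's methods name BLAST for matching reads to small RNA lists, and no genome build is given in the sources used here. The deposited seed viability is the authors' score per 6mer. A further deposited column of CPM summed over libraries was not used. CPM were whole reads within 0.0006 CPM at 100% of values, which gave the depth of each library. Since values are relative to the library, an abundant miRNA shifts all others, and rare reads were removed before deposit.

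Groups came from sample titles. CPM were summed per miRNA and per seed and tested (ko minus het) with limma 3.58.1 (trend and robust, R 4.3.3) on log2(CPM + 1) at a mean of at least 10 CPM, with Benjamini-Hochberg adjustment. edgeR 4.0.16 and DESeq2 1.42.0 on recovered reads were alternatives. Exact permutation and sign-flip tests were two-sided, and the permutation tests used scipy 1.17.1. A tail is a run of A or U after the last base that matches the hairpin in RefSeq, and an added base that equals the hairpin counts as encoded. Positions come from RefSeq and GENCODE M21. Wilson intervals cover counting error only, as reads had no molecular identifiers. Alternatives were other pseudocounts, other CPM minima, median centring, a replicate block, subsets of reads, each library left out and the 2 deepest libraries left out. Removal of the GC trend and the within-library isoform tests were added after seeing the data. The fits were tested on simulated data. The named reads were, per member, the 3 most abundant and the smallest p in each direction, and the 3 miRNAs most like the summed members and the 1 most like each of 3 members were named. Members and lists were chosen with earlier results of these data known.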

Additional observations from a re-analysis of the deposited data

Results flagged for a closer look

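In 52 groups of 4 libraries (members' levels, ratios and isoform measures by genotype), the gap between an extreme library and its neighbour was compared with the range of the group, and 4 groups passed Dixon's 95% value, where chance gives about 2.6. In ko replicate 3, miR-92a-3p was at 2322 CPM, and the next ko library was at 753 CPM. The log2 ratio of miR-25-3p to miR-92a-3p was −1.41 there, against −0.36 for the next. In het replicate 1, the shallowest library, 7.91% of miR-32-5p reads had a shifted seed (next 0.996%), from 139 reads of miR-32-5p in all, and the mean length of miR-92a-3p was 22.3 nt (next 22.2 nt). ko replicate 3 also had the strongest GC trend (rho 0.53), and the part of that trend in its values was not tested.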

How the results depend on the processing

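miR-32-5p was lower in ko in 20 of 20 alternatives (log2 difference −1.81 to −0.94, adjusted p 0.0615 to 0.730), miR-92b-3p and miR-25-3p were higher in 20 of 20, and none of these was called. miR-92a-3p was higher in 19 of 20 (−0.16 to 0.53 with a library left out). The order of the levels kept its direction under each of its alternatives, but the size of the steps moved. With the most abundant read only, miR-92b-3p exceeded miR-92a-3p by 1.41-fold on average (range 1.04 to 2.29) and miR-92a-3p exceeded miR-25-3p by 1.43-fold. In that setting miR-25-3p exceeded miR-32-5p by 5.73-fold and miR-32-5p exceeded miR-363-3p by 51.7-fold. With the GC trend removed, the ratio of miR-32-5p to miR-25-3p reached an exact permutation p of 0.0286 (0.0857 adjusted over the 3 ratios that could be computed, where the main adjustment was over 4).

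Replicate numbers are shared by the genotypes. The deviations of libraries of the same number correlated at 0.04, 0.29, −0.18 and 0.25, and those of different numbers at −0.50 to 0.41. Whether a replicate number marks a shared batch cannot be told from so few libraries. With the replicate number as a block, 10 miRNAs were called in place of 6, 26 reads in place of 16, and miR-32-5p had an adjusted p of 0.0615.

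The count of called reads was 35 at a minimum of 1 CPM, 5 at 100 CPM, 9 without the 2 deepest libraries and 9 to 21 with a library left out, that of seeds 1 at a pseudocount of 0.1 and 0 to 6 with a library left out, and that of miRNAs by share of the most abundant read 1 at 1000 CPM. The cause was not tested. Small differences changed sign. The ratio of miR-25-3p to miR-92a-3p was −0.012 with reads of the shared seed, −0.0088 with the most abundant read, −0.26 without the deepest libraries and −0.094 to 0.28 with a library left out. The ratio of miR-363-3p to miR-92a-3p was 0.0060 with the most abundant read and −1.02 to 0.37 with a library left out. Without the deepest libraries the differences were 0.086 nt in length and −6.46 points in most abundant read for miR-32-5p, 4.14 points in most abundant read and −2.55 points in tails for miR-92b-3p and 0.26 for the read aTTGCACTcgtcccggcctcc. The median of the cluster guides was 0.039 with median centring, 0.021 without the deepest libraries, 0.043 with the GC trend removed and −0.26 to 0.026 with a library left out. The read aTTGCACTtgtcccggcctgt was 0.062 at a pseudocount of 10.

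With a library left out, ranges that crossed 0 were −0.18 to 0.51 for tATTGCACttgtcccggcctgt, −0.22 to 0.57 for tATTGCACttgtcccggcctgtt, −0.63 to 0.18 for aTTGCACTcgtcccggcctcc and −1.42 to 0.47 for aTTGCACTtgtcccggcctgt. In points they were −1.97 to 0.67 for shifted seeds of miR-32-5p, −3.08 to 0.15 for the most abundant read of miR-92a-3p, −1.21 to 0.64 for tails of miR-25-3p, −0.31 to 4.42 for tails of miR-92a-3p, −0.17 to 3.21 for tails of miR-92b-3p and −0.42 to 1.15 for the shifted seeds of miR-25-3p minus miR-32-5p. That last pair passed an exact p of 0.05 only without het replicate 1, and miR-92a-3p minus miR-25-3p in shifted seeds only without ko replicate 1. Other ranges kept their sign but were wide: 0.035 to 0.64 for the seed total, 0.19 to 0.98 for miR-92b-5p, 0.17 to 0.36 for the ratio of miR-92b-3p to miR-92a-3p, 0.10 to 0.47 and 0.28 to 0.83 for the 20 nt and 21 nt reads of miR-25-3p, −1.56 to −0.69 for the 21 nt read of miR-32-5p, 0.060 to 0.73 for tATTGCACttgtcccggcctgta and 0.24 to 1.12 for tATTGCACttgtcccggcctga.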
